A study of Mus musculus with 12 samples.

Results

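The ADAMTS proteinases examined here were Adamts4, Adamts5, Adamts1, Adamts9, Adamts15, Adamts2, Adamts3, Adamts7, Adamts12 and Adamts16. They are 10 of the 57010 gene identifiers in the count tables and were taken by the Ensembl identifiers that a supplied names table pairs with these symbols. Their RNA was measured in 12 libraries of primary mouse chondrocytes, the cells that make and maintain cartilage matrix, by poly(A)-selected RNA sequencing. All cells were labelled wild type in genotype. The 4 Control libraries carry the treatment label Control, and what those cells received is not stated. The 4 WT libraries came from cells transfected with a wild-type plasmid, read here as wild-type SIRT5, and the 4 SIRT5F101L libraries from cells transfected with a SIRT5F101L mutant plasmid. SIRT5 is a mitochondrial deacylase that acts on malonylated and succinylated proteins. Replicate numbers follow accession order and only name a library. The labels give no time, age or strain, and do not say whether libraries of 1 group came from separate cultures or animals. The p-values therefore measure only the spread between these libraries, which may be technical.

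ADAMTS enzymes are secreted zinc metalloproteinases that are made as inactive precursors, trimmed by proprotein convertases such as furin, and held near their substrates by ancillary domains that bind matrix. In cartilage, ADAMTS4 and ADAMTS5 are known as the aggrecanases, which cut the core protein of aggrecan, the proteoglycan that lets cartilage bear load, and loss of aggrecan is an early feature of osteoarthritis. Relatives have other main substrates: versican for ADAMTS1, ADAMTS9 and ADAMTS15, the amino-terminal propeptides of fibrillar procollagens for ADAMTS2 and ADAMTS3, and cartilage oligomeric matrix protein (COMP) for ADAMTS7 and ADAMTS12.

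Promoter sequences of 4 members are shown because these genes ended on different sides of the comparisons below: Adamts1 was not called in any comparison, while Adamts9, Adamts2 and Adamts12 were lower in both plasmid groups. RefSeq's table (build GRCm38.p6) held 5 of the 10 members, these 4 and Adamts3. Adamts3 was also not called in any comparison, and its sequence is not shown. The table gives 250 bases before and 50 after the start of each gene. The windows are chr16:85803064-85803363 (minus strand) for Adamts1, chr6:92943485-92943784 (minus) for Adamts9, chr11:50601835-50602134 (plus) for Adamts2 and chr15:11064523-11064822 (plus) for Adamts12. Each is written 5′ to 3′ on the gene's strand, and capitals mark matches to the motifs searched.
Adamts1: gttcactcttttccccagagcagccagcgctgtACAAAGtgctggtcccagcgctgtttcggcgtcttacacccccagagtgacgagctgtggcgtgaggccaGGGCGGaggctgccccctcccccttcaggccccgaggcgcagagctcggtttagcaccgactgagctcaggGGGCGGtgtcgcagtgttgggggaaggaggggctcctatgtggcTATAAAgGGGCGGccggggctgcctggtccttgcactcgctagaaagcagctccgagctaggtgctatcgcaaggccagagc
Adamts9: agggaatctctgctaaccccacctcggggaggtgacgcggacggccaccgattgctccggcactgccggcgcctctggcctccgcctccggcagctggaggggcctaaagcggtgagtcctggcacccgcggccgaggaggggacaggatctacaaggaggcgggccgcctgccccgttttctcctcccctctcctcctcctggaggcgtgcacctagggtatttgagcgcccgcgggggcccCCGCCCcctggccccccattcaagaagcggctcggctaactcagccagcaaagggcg
Adamts2: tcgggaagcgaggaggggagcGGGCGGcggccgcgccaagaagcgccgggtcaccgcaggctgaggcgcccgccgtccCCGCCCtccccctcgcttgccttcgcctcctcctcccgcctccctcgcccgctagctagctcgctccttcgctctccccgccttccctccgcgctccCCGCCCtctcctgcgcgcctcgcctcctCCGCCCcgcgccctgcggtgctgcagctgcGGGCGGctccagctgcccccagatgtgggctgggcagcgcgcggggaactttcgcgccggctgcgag
Adamts12: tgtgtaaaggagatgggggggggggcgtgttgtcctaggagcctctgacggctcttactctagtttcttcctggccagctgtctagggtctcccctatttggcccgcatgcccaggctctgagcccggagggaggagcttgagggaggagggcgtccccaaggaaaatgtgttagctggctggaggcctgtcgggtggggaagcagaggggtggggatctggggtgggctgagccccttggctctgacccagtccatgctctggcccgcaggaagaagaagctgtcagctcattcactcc

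Motifs were searched on both strands, and the share of the 32851 promoters of this length in the table that hold each is given as background. The AP-1 letters, TGANTCA, were present in 7.81% of those promoters. The letters of a TATA box, which positions the start of transcription at some genes, were searched as TATAAA and present in 13.6%. For RUNX factors, regulators of skeletal development, the search used TGTGGT, present in 16.8%. For SOX factors, which include the chondrocyte regulator SOX9, it used ACAAAG, present in 18.7%. The GC box, a common element of promoters without a TATA box, was searched as GGGCGG and present in 35.7%. The Adamts1 window held a TATAAA whose first base lay at -32 from the start, an ACAAAG at -217 and 3 GC boxes, and no matches overlapped. The Adamts2 window held 5 GC boxes, the Adamts9 and Adamts3 windows 1 each, and the Adamts12 window none of the letters searched. AP-1 and RUNX letters were in none of these 5 windows. The windows were rich in G and C, against a median of 52.7% over all promoters. The share was 64.7% for Adamts1, 70% for Adamts9, 77.3% for both Adamts2 and Adamts3, and 62% for Adamts12.

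Libraries held 15095357 to 24242139 counts, so that 1 count was worth 0.0413 to 0.0662 CPM, the unit of counts scaled to library size. Of the members, 9 passed the filter on low counts and were tested with edgeR among 14253 genes; Adamts16 did not pass, and Adamts15 passed through the libraries in which it is high. The first principal component held 72.7% of the variance and placed the Control libraries at -75.3 to -72.1 and the 8 plasmid libraries at 33.4 to 40.7. SIRT5F101L replicate 1 stood apart from its group: on the second component (5.66%) it lay at 20.3, the other 3 at -23.5 to -17 and the WT libraries at -1.07 to 20.1, and its slope of log2 CPM on log2 gene length was -0.0525 against 0.0671 to 0.0854. By the median chi-square of their counts over sampling noise, it lay nearest to WT replicate 4 (2.61) and far from its own group (8.2 to 8.92). WT replicate 1 also stood apart, at -1.07 on the second component against 12.5 to 20.1 for the other WT libraries, with a length slope of 0.0421 against -0.0324 to -0.0014. Results that rest on either are given with and without it. Sirt5 itself had 9 to 16 counts in Control, 1 to 9 in WT and 9 to 19 in SIRT5F101L libraries and was not called in any comparison, with log2 differences from Control of -0.86 (edgeR adjusted p = 0.143) in WT and 0.03 (adjusted p = 0.954) in SIRT5F101L, so these counts did not separate the groups and do not check the labels; whether the tables could count plasmid transcripts was not tested.

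All 11 chondrocyte markers (among them Col2a1, Acan and Sox9) were detected in every group, but their summed level was 9180 to 11500 CPM in Control, 2850 to 2960 in WT and 2320 to 2560 in SIRT5F101L libraries. Col2a1 (6720 CPM in Control) and Comp (2040 CPM) carried most of that sum; 9 of the 11 fell in both plasmid groups, Sox9 by 0.20 and 0.34 on the log2 scale, while Hapln1 rose in both (82.2 CPM in Control, 97.8 in WT and 93.1 in SIRT5F101L) and Acan in WT. The 7 fibroblast or synovial lining markers summed to 18400 to 21900, 7490 to 8570 and 7710 to 8640 CPM, so both sums differed between Control and plasmid groups alongside the ADAMTS genes. Col1a1 (12700 CPM in Control) and Col3a1 (6480 CPM) carried most of the fibroblast sum; 5 of the 7 fell in both plasmid groups, while Prg4 (0.41 and 0.54 on the log2 scale) and Pdgfra (0.39 and 0.62) rose in both. Macrophage and leukocyte markers, 7 of 8 detected with Itgam listed at 0, summed to 169 to 204, 130 to 149 and 139 to 178 CPM. Of these 7, 6 fell in both plasmid groups, such as Adgre1 (-2.03 and -1.90) and Lyz2 (-1.05 and -1.03), with list medians of -1.05 and -1.03, while Cd14 rose from 12.4 CPM to 51.3 and 59.8 CPM. The 5 osteoblast markers summed to 18 to 24.8 CPM in Control, 4.11 to 4.79 in WT and 3.51 to 5.21 in SIRT5F101L libraries. Ibsp carried most of the Control sum, at 14.7 CPM, and stood at 0.284 and 0.146 CPM in the plasmid groups. Of the 3 tested, 2 fell in both plasmid groups, while Alpl was not called (2.85 CPM in Control, 3.02 in WT and 3.21 in SIRT5F101L libraries). The 5 muscle and adipocyte markers summed to 6.23 to 7.56, 2.18 to 3.64 and 1.59 to 2.99 CPM, mostly Acta1, with Ckm at 0 in both plasmid groups and Adipoq in WT. The 5 endothelial markers summed to 3.65 to 4.53, 2.66 to 3.91 and 3.17 to 3.97, and none of the 4 tested was called. The part of cell makeup in the results below was not tested. In bulk libraries, fewer cells of a type and less RNA per cell cannot be told apart.

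In Control chondrocytes, Adamts1 and Adamts5 were the most abundant of the 10 members. Levels of different genes were compared as CPM per kilobase of merged exons. Adamts1 stood at 34.5 ± 4.05 (SD, n = 4), Adamts5 at 25.1 ± 3.26 and Adamts2 at 13.2 ± 0.408, and together these made up most of the family's summed level of 77.7 ± 7.48. The next members were at a far lower level: Adamts9 at 1.5 ± 0.129, Adamts4 at 1.17 ± 0.282, Adamts12 at 0.784 ± 0.123, Adamts7 at 0.755 ± 0.0769 and Adamts3 at 0.53 ± 0.0515 CPM per kilobase. On merged exons, Adamts9 and Adamts4 differed by less than the sum of their SDs, and Adamts12 and Adamts7 by less than either SD. Both near-ties rest on the length used. The longest transcript of Adamts9 has 8016 bases against 15048 in merged exons, and that of Adamts4 has 4389 against 4810. For Adamts12 these lengths are 8579 and 10921 bases, and for Adamts7 5379 and 6282. Adamts15 (0.0877 ± 0.0382) and Adamts16 (0.081 ± 0.0124) were lowest and did not differ beyond their spread.

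The share of Adamts1, Adamts2 and Adamts7 in the family's summed level differed between Control and plasmid libraries. Adamts1 made up 44.3% ± 1.19 of the summed CPM per kilobase in Control, 57% ± 0.515 in WT and 54.3% ± 1.03 in SIRT5F101L libraries (SD, n = 4 each). Adamts2 made up 17.1% ± 1.29, 6.88% ± 0.0441 and 6.97% ± 0.579, and Adamts7 0.979% ± 0.133, 3.71% ± 0.141 and 3.75% ± 0.514. For these 3 genes the Control range did not overlap that of either plasmid group. The same held for the smaller shares of Adamts4 (1.54% in Control against 0.636% and 0.697%), Adamts9 (1.94% against 1.12% and 1.17%) and Adamts12 (1.01% against 0.67% and 0.702%), which were lower in the plasmid groups. Adamts5 held 32.2% ± 1.4, 28.9% ± 0.445 and 31.5% ± 1.03; its Control range (30.9% to 33.6%) lay above the WT range (28.4% to 29.3%) and overlapped the SIRT5F101L range (30.5% to 32.9%). The family's sum was 63.4 ± 4.05 in WT and 65.9 ± 4.67 CPM per kilobase in SIRT5F101L libraries, and the order of the 3 leading members, Adamts1, Adamts5 and Adamts2, was the same in the means of each group.

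**Figure D1:**
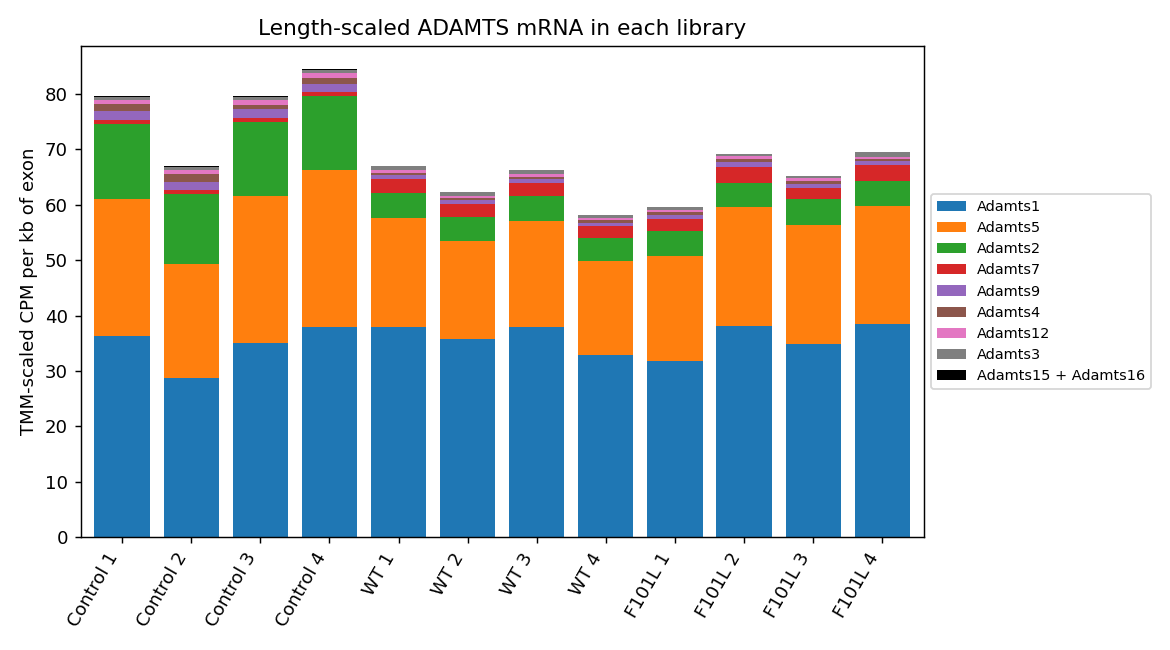
Stacked bars of TMM-scaled CPM per kilobase of exon for the ADAMTS members in each of the 12 libraries (F101L stands for SIRT5F101L), from a true 0. Each gene has its own colour, except that Adamts15 and Adamts16 are summed in 1 black band. The Adamts2 band is thicker in the Control libraries, at 17.1% of the sum on average against 6.88% and 6.97% in the plasmid groups, while the Adamts1 band is of similar height throughout.

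Comparison of each plasmid group with Control shows how the family stood in transfected cells; both comparisons share the 4 Control libraries, so their values are given side by side and are not independent. Adamts15 is described apart, since it entered the test through the libraries in which it is high. In WT against Control, 5 of the other 8 tested members fell, 1 rose and 2 were not called at an edgeR adjusted p of 0.05, where 56.8% of all tested genes were called, 28.1% as lower and 28.7% as higher. In SIRT5F101L against Control the counts were again 5 lower, 1 higher and 2 not called, against 60.7% of all tested genes called, 30.7% as lower and 30% as higher. Since most tested genes were called, a call by itself sets no member apart. The member that rose was Adamts7, and those that fell were Adamts4, Adamts5, Adamts9, Adamts2 and Adamts12 in both comparisons. The median log2 difference over these 8 was -0.66 for WT and -0.51 for SIRT5F101L (-0.87 and -0.76 with Adamts15), against -0.013 and -0.017 over all tested genes. The groups did not overlap for 7 of the 8 in WT against Control (53.5% of all tested genes) and for 5 in SIRT5F101L against Control (51.3%).

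**Figure D2:**
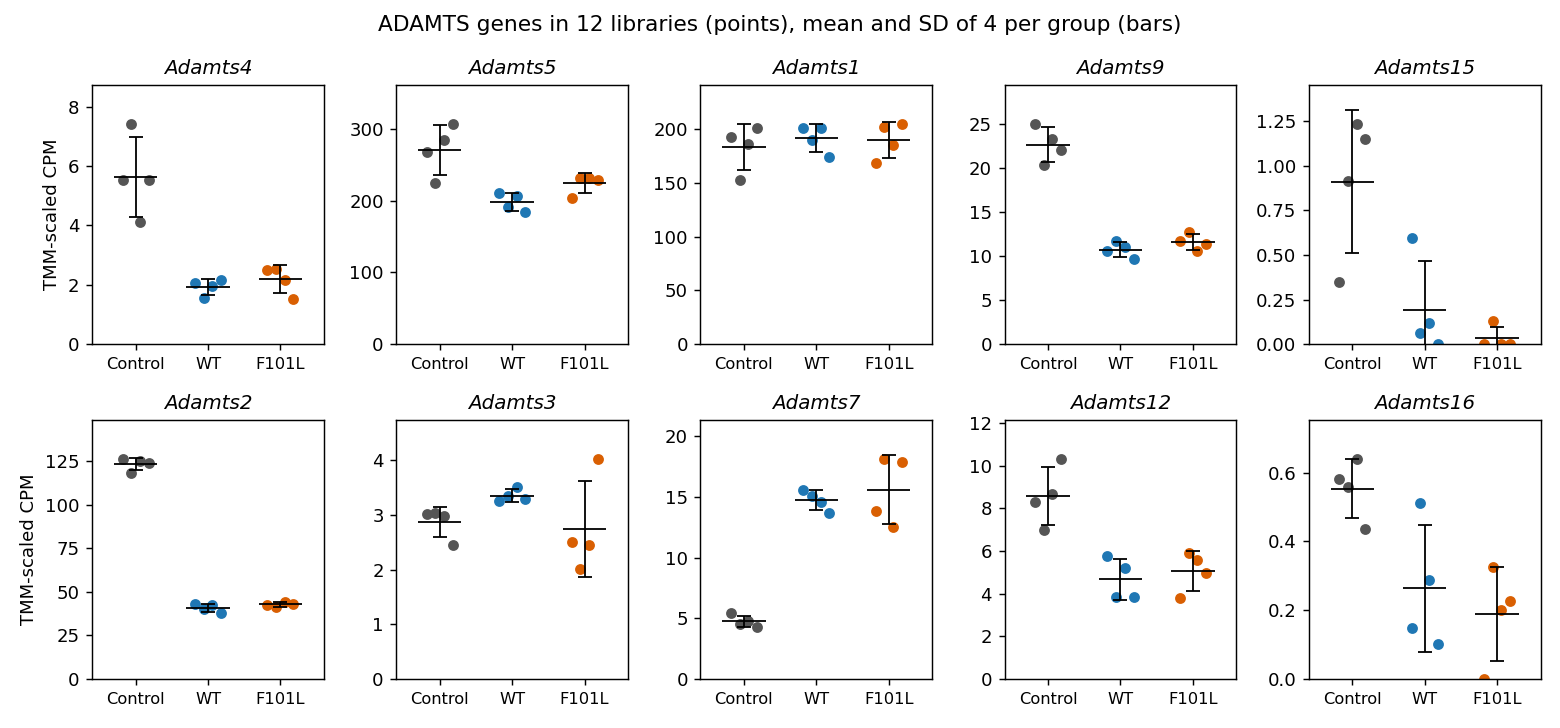
TMM-scaled CPM of each ADAMTS member, 1 panel per gene with its own linear axis from 0, in the Control, WT and SIRT5F101L (F101L) libraries; points are libraries, and bars the mean and SD of 4. Adamts7 lies higher in all plasmid libraries (12.5 to 18.1 CPM) than in Control (4.26 to 5.4 CPM), while Adamts2, Adamts4, Adamts9 and Adamts12 lie lower in all of them.

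Adamts4, the aggrecanase that inflammatory cytokines are known to induce in chondrocytes, was low in all libraries and fell in both plasmid groups. It measured 5.52, 7.4, 4.1 and 5.52 CPM in the Control libraries, 2.07, 1.54, 1.96 and 2.16 CPM in WT and 2.51, 2.53, 2.17 and 1.53 CPM in SIRT5F101L. All 8 plasmid libraries lay below the lowest Control library. The log2 difference from Control was -1.53 ± 0.214 (SE; edgeR adjusted p = 4.22e-06) for WT and -1.37 ± 0.21 (adjusted p = 1.28e-05) for SIRT5F101L.

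Adamts5, the main aggrecanase of mouse cartilage in gene deletion work, was second to Adamts1 on the per-length scale and fell less than Adamts4 on the log2 scale, a difference that was not tested. Its levels were 267, 224, 285 and 306 CPM in Control, 211, 191, 206 and 184 CPM in WT and 204, 232, 232 and 229 CPM in SIRT5F101L libraries. WT and Control did not overlap, while 3 SIRT5F101L libraries lay above the lowest Control library, replicate 2. The log2 difference was -0.45 ± 0.08 (SE; edgeR adjusted p = 8.13e-05) for WT and -0.27 ± 0.08 (adjusted p = 0.00636) for SIRT5F101L. The latter was -0.23 (adjusted p = 0.00734) without SIRT5F101L replicate 1, and -0.47 (adjusted p = 2.38e-06) when each library's trend with gene length was removed. The ratio of Adamts5 to Adamts4 per kilobase was 22.7 ± 7.28 (SD, n = 4) in Control, 46.4 ± 7.08 in WT and 47.8 ± 13.4 in SIRT5F101L libraries, with no plasmid library in the Control range of 13.5 to 30.9.

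Adamts1, which cuts versican and, more weakly, aggrecan, was the one abundant member with no call. It measured 192, 152, 186 and 201 CPM in Control, 201, 190, 201 and 174 CPM in WT and 168, 202, 185 and 204 CPM in SIRT5F101L libraries, and all 3 groups overlapped. Its log2 difference from Control was 0.07 with a 95% interval of -0.10 to 0.24 for WT (edgeR adjusted p = 0.5) and 0.06 (adjusted p = 0.584) for SIRT5F101L, and both estimates changed sign without Control replicate 2. Adamts1 and Adamts5 are neighbouring genes on chromosome 16. The ratio of Adamts1 to Adamts5 per kilobase was 1.38 ± 0.0638 (SD, n = 4) in Control, 1.97 ± 0.0477 in WT and 1.73 ± 0.0856 in SIRT5F101L libraries, and the Control range of 1.33 to 1.47 lay below the ranges of both plasmid groups.

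Adamts9, a versican-cutting member, fell in both plasmid groups. It measured 24.9, 20.3, 23.3 and 22 CPM in Control, 10.6, 11.7, 11 and 9.62 CPM in WT and 11.7, 12.7, 10.6 and 11.4 CPM in SIRT5F101L libraries, so that every plasmid library lay below every Control library. Its log2 difference was -1.08 ± 0.098 (SE; edgeR adjusted p = 9.22e-09) for WT and -0.97 ± 0.097 (adjusted p = 3.99e-08) for SIRT5F101L. For Adamts9, 24.8% of exon length lies within the spans of other genes on chromosome 6, one of which, 9530026P05Rik, had log2 differences of 0.71 and 1.33 in the opposite direction.

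Adamts15, a relative with the same main substrate, is given as raw counts, since it is near the detection limit: 6, 18, 23 and 21 counts in Control, 12, 1, 2 and 0 in WT and 0, 2, 0 and 0 in SIRT5F101L libraries. WT replicate 1 overlapped the Control libraries, and no SIRT5F101L library did. Pooled over libraries, its rate was 4.45-fold lower in WT (15 counts against 68; exact 95% interval 2.52 to 8.38) and 35.2-fold lower in SIRT5F101L (2 against 68; 9.38 to 297), intervals that cover counting error only. The fitted log2 differences were -2.13 and -4.80, and no test of them is given because the filter admitted Adamts15 through the Control libraries. The values rest on few libraries: the WT difference was -3.84 without WT replicate 1, and the SIRT5F101L difference was -7.12 without SIRT5F101L replicate 2, when all its remaining libraries were at 0.

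Of the procollagen N-proteinases, Adamts2, the main enzyme for type I and type III procollagen, fell in both plasmid groups, with the lowest adjusted p of the members. It measured 126, 118, 125 and 124 CPM in Control, 43, 39.9, 42.2 and 37.7 CPM in WT and 42.5, 41.1, 44 and 43.2 CPM in SIRT5F101L libraries. The gap between Control and the plasmid libraries was far wider than the spread within any group. The log2 difference was -1.60 ± 0.061 (SE; edgeR adjusted p = 1.03e-14) for WT and -1.53 ± 0.061 (adjusted p = 1.96e-14) for SIRT5F101L.

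Adamts3, a relative known for type II procollagen and for activating the lymphatic growth factor VEGF-C, was not called. It measured 3.02, 3.04, 2.98 and 2.46 CPM in Control, 3.26, 3.34, 3.52 and 3.29 CPM in WT and 2.51, 2.01, 2.45 and 4.02 CPM in SIRT5F101L libraries. Its WT libraries all lay above its Control libraries, but its log2 difference of 0.22 ± 0.204 (SE) had an edgeR adjusted p of 0.375, and that for SIRT5F101L was -0.07 (adjusted p = 0.804), turning to 0.05 without SIRT5F101L replicate 2. The level of Adamts3 per kilobase was 4.01% ± 0.433 (SD, n = 4) of that of Adamts2 in Control, 14.2% ± 0.847 in WT and 11% ± 3.39 in SIRT5F101L libraries.

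Adamts7 and Adamts12, a structurally similar pair that binds and cuts COMP, moved in opposite directions. Adamts7 measured 5.4, 4.56, 4.74 and 4.26 CPM in Control, 15.6, 15.1, 14.6 and 13.7 CPM in WT and 13.8, 18.1, 12.5 and 17.9 CPM in SIRT5F101L libraries. Every plasmid library was above every Control library, with a wider spread among SIRT5F101L than among WT libraries. The log2 difference was 1.64 ± 0.133 (SE; edgeR adjusted p = 1.88e-09) for WT and 1.71 ± 0.133 (adjusted p = 8.61e-10) for SIRT5F101L. For Adamts7, 5.65% of exon length lies within the span of Tbc1d2b on chromosome 9, which was not called in any comparison.

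Adamts12 measured 8.31, 7, 8.68 and 10.3 CPM in Control, 5.77, 3.85, 5.2 and 3.86 CPM in WT and 3.8, 5.91, 5.58 and 4.99 CPM in SIRT5F101L libraries, again with no overlap between Control and plasmid libraries. It fell by 0.87 ± 0.172 on the log2 scale in WT (SE; edgeR adjusted p = 0.000235) and by 0.76 ± 0.17 in SIRT5F101L (adjusted p = 0.000724). The ratio of Adamts7 to Adamts12 per kilobase was 0.984 ± 0.195 (SD, n = 4) in Control, 5.65 ± 1.02 in WT and 5.45 ± 1.12 in SIRT5F101L libraries, so the pair was level in Control and Adamts7 led in both plasmid groups.

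Adamts16 had 10, 11, 12 and 8 counts in Control, 3, 8, 5 and 2 in WT and 0, 5, 5 and 4 in SIRT5F101L libraries, too few to pass the filter. Pooled over libraries, its rate was 2.23-fold lower in WT (18 counts against 41; exact 95% interval 1.26 to 4.13) and 3.03-fold lower in SIRT5F101L (14 against 41; 1.62 to 6.02), counting error only. Without the filter, its log2 difference was -1.10 (edgeR adjusted p = 0.221) in WT and -1.56 (adjusted p = 0.0633) in SIRT5F101L.

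**Figure D3:**
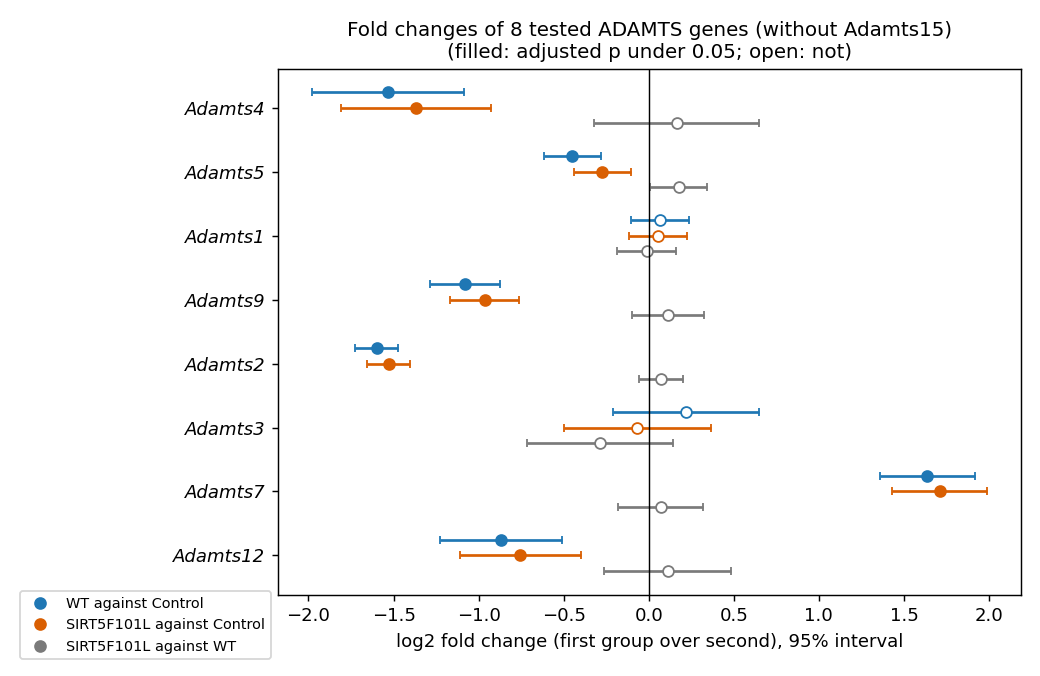
Log2 fold change of 8 tested ADAMTS members (Adamts15 is left out) in the 3 comparisons, with bars for the 95% interval from edgeR; filled points were called at an adjusted p under 0.05. Against Control, Adamts7 lies above 0 and 5 called members below it, and all 8 points for SIRT5F101L against WT are open.

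SIRT5F101L was compared directly with WT to ask whether the mutant and wild-type plasmids gave different ADAMTS levels. With Adamts15 again set apart, none of the other 8 tested members was called by edgeR at an adjusted p of 0.05 or by DESeq2, where edgeR called 0.0421% of all tested genes, 6 of 14253. At an unadjusted p of 0.05, 1 of these 8 passed, Adamts5, against 11.9% of all tested genes, and no member was without overlap between the groups (4.02% of all tested genes were). Adamts5 was higher in SIRT5F101L by 0.18 on the log2 scale (95% interval 0.01 to 0.35; unadjusted p = 0.0402 and adjusted p = 0.407, edgeR). Without SIRT5F101L replicate 1, its lowest library of that group at 204 CPM, the Adamts5 difference was 0.22 (adjusted p = 0.0355) and 2213 genes were called. Without WT replicate 1 it was 0.21 (edgeR adjusted p = 0.286), and with each library's trend with gene length removed it was 0.09 (adjusted p = 0.642). Over all 20 alternatives it ran from 0.09 to 0.22, with adjusted p of 0.0355 to 0.745. The fitted difference of Adamts15 was -2.67, and -0.96 without WT replicate 1, which held 12 of the 15 WT counts, or -4.99 without SIRT5F101L replicate 2, which held both counts of its group.

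For the other members, the 95% intervals of the log2 difference all included 0. The interval for Adamts2 was the narrowest, at -0.06 to 0.20 about a difference of 0.07 (edgeR adjusted p = 0.649). Adamts1 differed by -0.01 (-0.18 to 0.16), Adamts9 by 0.11 (-0.10 to 0.33) and Adamts7 by 0.07 (-0.18 to 0.32), with edgeR adjusted p of 0.963, 0.649 and 0.835. The less abundant members had wider intervals: Adamts4 differed by 0.17 (-0.32 to 0.65), Adamts12 by 0.11 (-0.26 to 0.49) and Adamts3 by -0.29 (-0.71 to 0.14), with edgeR adjusted p of 0.794, 0.824 and 0.569. The median over the 8 members was 0.09, against 0 over all tested genes. These results do not show that the plasmids act alike.

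Counts of called genes in the related lists, and in the marker lists above, stand beside a high share over all tested genes. That share was 56.8% in WT against Control and 60.7% in SIRT5F101L against Control, so the counts alone set no list apart. Among the 9 other ADAMTS proteinases, 4 were tested. Of these, 1 rose and 2 fell in both comparisons with Control, with medians of -0.50 for WT and -0.67 for SIRT5F101L. Adamts6, a relative that acts on fibrillin-linked microfibrils, rose from 7.07 CPM in Control to 16 CPM in WT and 18.2 CPM in SIRT5F101L libraries (log2 difference 1.17 and 1.36; edgeR adjusted p = 3.44e-07 and 3.27e-08). Adamts10, another microfibril-associated relative, fell by 0.66 in both, from 56.7 CPM to 35.8 and 35.9 CPM. Adamts14, the other procollagen N-proteinase, fell by 1.28 and 1.55, from 8.43 CPM to 3.45 and 2.87 CPM, so Adamts14 and Adamts2 were both lower while Adamts3 was not called. Of the 7 ADAMTS-like proteins, which share the ancillary domains but have no protease domain, 6 were tested: 1 rose and 3 fell in WT, and none rose and 3 fell in SIRT5F101L. Those that fell in both were Adamtsl3 (-1.05 and -0.97), Adamtsl4 (-0.76 and -0.86) and Adamtsl1 (-1.18 and -1.26).

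The substrates did not move as one. Of 9 tested proteoglycan and matrix substrates, 4 rose and 4 fell in WT and 3 rose and 4 fell in SIRT5F101L, with medians of 0.02 and 0.00. Versican (Vcan) rose in both, from 52.5 CPM in Control to 629 CPM in WT and 739 CPM in SIRT5F101L libraries (log2 difference 3.58 and 3.82; edgeR adjusted p = 5.82e-18 and 2.39e-18). Comp fell from 2040 CPM to 213 and 189 CPM (-3.26 and -3.44), beside the rise of Adamts7 and the fall of Adamts12. Aggrecan (Acan) stood at 133, 185 and 143 CPM; it rose in WT (0.47, adjusted p = 1.78e-05), was not called in SIRT5F101L (0.10, adjusted p = 0.243) and differed between the plasmid groups by -0.37 (adjusted p = 0.0942). That difference was -0.35 (adjusted p = 0.00099) without SIRT5F101L replicate 1, -0.35 (adjusted p = 0.157) without WT replicate 1 and past the threshold in 2 of 12 fits with a library left out (edgeR adjusted p of 0.00099 to 0.398). Fibromodulin (Fmod), a collagen-binding proteoglycan, fell by 2.97 and 3.03. All 8 fibrillar procollagens, the substrates of the N-proteinases, fell in both, with medians of -1.61 and -1.70. Examples are Col11a2 (-2.74 and -3.36), Col2a1 (-2.01 and -2.36) and Col1a2 (-1.90 and -1.99), and Col11a2 was the only gene of these lists called between SIRT5F101L and WT (-0.63, edgeR adjusted p = 0.0339). That call held in 2 of 12 fits with a library left out, those without SIRT5F101L replicate 1 (-0.62, adjusted p = 9.22e-05) or Control replicate 2 (-0.63, adjusted p = 0.00285), and was lost in the other 10 (adjusted p up to 0.167).

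Of 9 inhibitors and clearance receptors, 5 were tested; 1 rose and 3 fell in WT, and 1 rose and 2 fell in SIRT5F101L. Reck, a membrane-anchored metalloproteinase inhibitor, fell from 258 CPM to 72.4 and 74.9 CPM (-1.83 and -1.79; edgeR adjusted p = 1.68e-13 and 2.38e-13), and Timp2 fell by 0.34 and 0.35. Lrp1, the endocytic receptor that clears ADAMTS4 and ADAMTS5, rose from 1940 CPM to 3060 and 3380 CPM (0.66 and 0.80). Timp3, the tissue inhibitor with the strongest known activity on aggrecanases, was listed at 0 in every library, as were Timp1 and Timp4. Timp3 and Timp4 each lie inside the span of another gene, so no level can be read for them. Of 1041 autosomal protein-coding genes so placed, 99.0% were at 0 in all 12 libraries, against 14.9% of the 19726 others. Timp1 is on chromosome X, where all 2414 identifiers were at 0.

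Of the 4 proprotein convertases, 2 rose and 1 fell in both comparisons: Pcsk5 rose from 7.48 CPM to 59.4 and 78.5 CPM (2.99 and 3.39; edgeR adjusted p = 5.68e-16 and 7.66e-17), Furin rose from 117 CPM to 209 and 192 CPM (0.84 and 0.71), and Pcsk6 fell by 1.30 and 1.39. Of the 9 cofactors and binding partners, 7 rose and 2 fell in both, with medians of 0.25 and 0.26. Ccbe1, which helps ADAMTS3 activate VEGF-C, rose from 3.62 CPM to 56.9 and 65.1 CPM (3.98 and 4.18), Cd44, a hyaluronan receptor, rose by 1.82 and 1.86, and Sdc4, a proteoglycan linked to ADAMTS5 activation, by 1.01 and 0.96. Of the 21 regulators of aggrecanase genes, 16 were tested; 9 rose and 5 fell in both, with medians of 0.22 and 0.20. Il6 rose from 1.67 CPM to 75.5 and 94.2 CPM (5.50 and 5.82), Tlr4, a receptor for microbial and matrix-derived signals, rose by 1.10 and 1.19, and Sox4, a transcription factor linked to Adamts4 and Adamts5 promoters, fell by 1.14 and 1.06. Adamts4 and Adamts5 fell in the same libraries in which Il6 rose. Other genes of this list were lower there: Il1r1 fell by 0.65 and 0.43. Tnf, which did not pass the filter, stood at 0.785 CPM in Control, 0.0882 in WT and 0.096 in SIRT5F101L libraries. Any link of these genes to the ADAMTS levels was not tested.

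**Figure D4:**
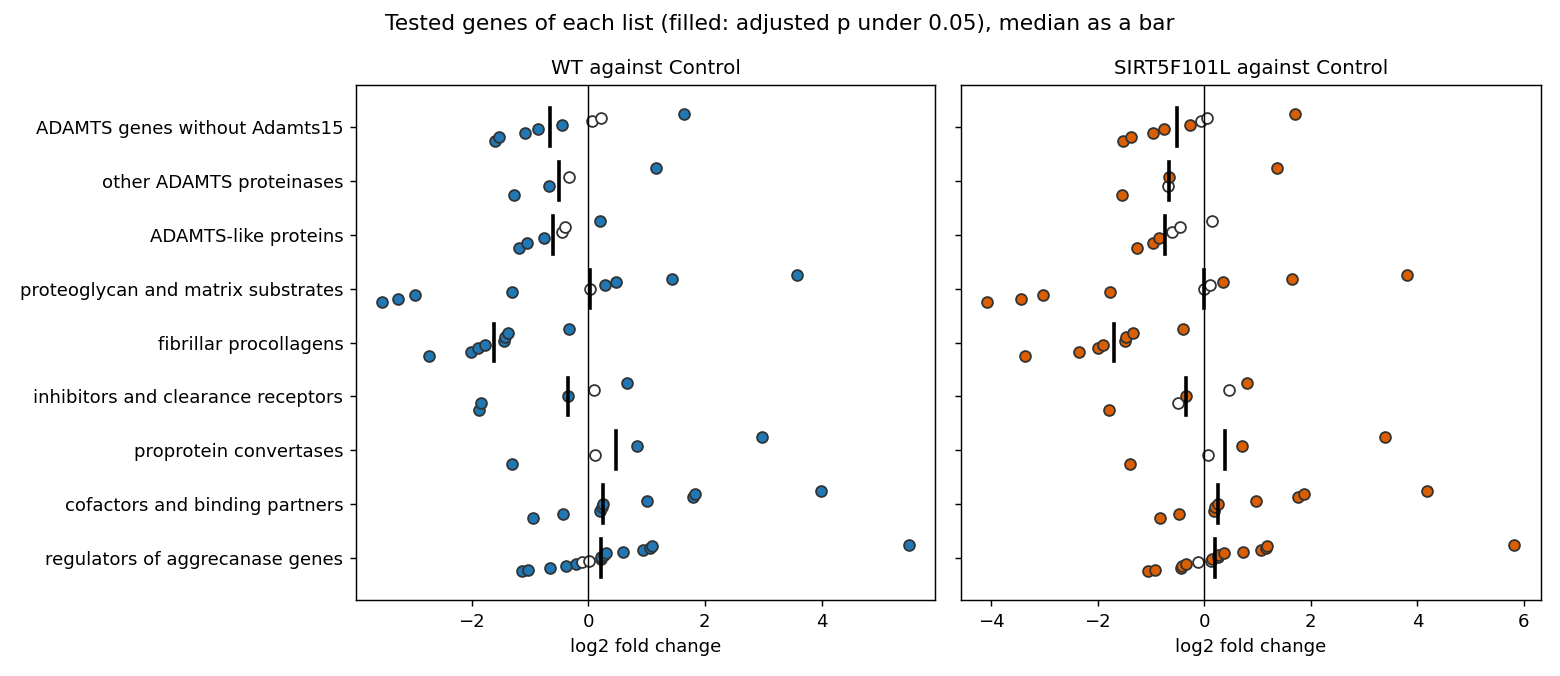
Log2 fold changes from Control of the tested genes in each ADAMTS-related list, 1 point per gene, in WT (left) and SIRT5F101L (right); filled points were called at an adjusted p under 0.05, and the bar is the list's median (members shown without Adamts15). The fibrillar procollagens lie wholly below 0 with medians of -1.61 and -1.70, and the substrates spread to both sides.

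The genes whose profiles over the 12 libraries lay nearest to that of Adamts4, by the root mean square difference of log2 CPM centred on the gene mean, were Prss36 (0.222), Spats2l (0.223) and Gstm1 (0.224), of 9750 genes with a median distance of 0.724. Gstm1, a glutathione transferase, stood at 78.8 CPM in Control, 29.1 CPM in WT and 32.1 CPM in SIRT5F101L libraries, a drop of similar size to that of Adamts4. For Adamts5 they were Cd109 (0.078), Tmem260 (0.08) and Ski (0.083), of 9749 genes with a median distance of 0.294. Ski, a repressor of TGF-beta signalling, stood at 385, 296 and 306 CPM. The profiles share their libraries and scaling, and nearness is given as a description only.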

How the data were processed

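The deposited tables hold whole-number counts per Ensembl mouse gene, made by the authors, 1 table for each of the 12 libraries. Poly-T beads captured the mRNA, which was sequenced as paired 150 bp reads, per the labels' protocols. Per the submitters' processing notes, the tools were FastQC 0.11.9, HISAT2 2.2.1, HTSeq 2.0.2 and DESeq2 1.38.3, and the builds GRCm39 and mm39 are named; the annotation, strand and feature settings of the counting are not given in the sources used here. Without a known strand setting, reads of overlapping genes cannot be told apart. A names table gave 52029 of 57010 identifiers a symbol, and the 4981 others kept their identifier.

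Groups came from the treatment labels. Counts of all 12 libraries were fitted in R 4.3.3 with edgeR 4.0.16 (filterByExpr by group, TMM scaling, quasi-likelihood test, 2-sided, 9 residual degrees of freedom), 1 mean per group, and p-values were adjusted by Benjamini-Hochberg over 14253 genes. A gene was called at an adjusted p under 0.05. Standard errors are the log2 difference divided by the root of F. CPM are TMM-scaled. Merged exon lengths and gene spans came from GENCODE M21 on GRCm38, another build than the counts, so no gene coordinates are taken from it; promoter windows and their coordinates are RefSeq's on GRCm38.p6 and were joined to the counts by symbol only. Reads carry no molecular identifiers. Pooled rates of low genes have exact 95% intervals, which cover counting error only.

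All 10 members are named, with the 3 genes of lowest adjusted p in each related list, Timp3, Acan, Comp and Sirt5, and the 3 nearest profiles for Adamts4 and Adamts5. 9530026P05Rik and Tbc1d2b are named for their position. Single marker genes of other cell types, Il1r1 and Tnf were named after their values were seen. Members and lists were chosen with earlier results of these data known. Alternatives were RLE and upper-quartile scaling, DESeq2 1.42.0, 2 other filters, a robust prior, 8 libraries only, removal of the length trend, and each library left out; a level per exon length outside other genes, the counts without Adamts15 and the fits of Acan and Col11a2 with a library left out were added after the data were seen. The fits were tested on simulated data. No 2 libraries agreed within sampling noise.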

Additional observations from a re-analysis of the deposited data

Results flagged for a closer look

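In groups of 4 libraries, 111 sets of values were screened with Dixon's ratio for a library far from the other 3 of its group, and 8 were found, where chance gives about 5.55. Adamts5 was 204 CPM in SIRT5F101L replicate 1, against 229 to 232 in the others. Adamts15 was 0.13 CPM (2 counts) in SIRT5F101L replicate 2 and 0 in the others. Adamts3 was 2.46 CPM in Control replicate 4, against 2.98 to 3.04. Among related genes, Adamtsl3 was 36.5 CPM in SIRT5F101L replicate 1 (others 46.7 to 48), Adamtsl1 was 0.845 CPM in SIRT5F101L replicate 2 (others 1.56 to 1.66), Fmod was 1980 CPM in Control replicate 2 (others 2270 to 2310), Sox4 was 177 CPM in Control replicate 4 (others 190 to 192) and Sirt5 was 1.23 CPM in SIRT5F101L replicate 2 (others 0.481 to 0.602).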

How the results depend on the processing

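No paired analysis was possible because the labels give no replicate numbers; those used here follow accession order and pair nothing. Of 535 alternative fold changes of the members, 524 kept their direction and side of the threshold. Adamts15 aside, the 6 members called against Control kept their calls in the alternatives run. Adamts15 and Adamts16 entered or left the test with the filter, so no count of calls with them is given. Genes called ran from 7549 to 8747 for WT and from 8030 to 9179 for SIRT5F101L when a library was left out. Between SIRT5F101L and WT, 6 genes were called, against 354 with no filter, 39 with DESeq2, 16 with the length trend removed, and 2 with a robust prior or the 8 libraries alone; leaving out a library gave 0 to 2213 genes and 0 to 1 member, 2213 and Adamts5 being without SIRT5F101L replicate 1. The cause was not tested.

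Uncalled members changed sign in a few settings. With a library left out, the Adamts1 difference from Control ran from -0.013 to 0.114 (WT) and from -0.027 to 0.11 (SIRT5F101L), below 0 without Control replicate 2; with the length trend removed it was -0.015 (SIRT5F101L). Adamts3 in SIRT5F101L against Control ran from -0.299 to 0.045, above 0 without SIRT5F101L replicate 2. Between the plasmid groups, Adamts1 ran from -0.058 to 0.041, above 0 without WT replicate 1 (0.011), WT replicate 3 (0.01) or SIRT5F101L replicate 1, and Adamts7 from -0.008 to 0.169, below 0 without SIRT5F101L replicate 2 or 4 (-0.005). Adamts2 was -0.002 there with the length trend removed. Of 210 alternative levels per kilobase, 25 moved by more than the spread between replicates. Depth limits Adamts15 and Adamts16, with at most 23 and 12 counts in a library.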
